A study of Homo sapiens with 9 samples.

Results

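The respiratory chain of the inner mitochondrial membrane was described here through 34 nuclear genes for its subunits and through PPARGC1A, which encodes PGC-1α, a coactivator of mitochondrial genes. The 35 genes were a given list, and each was represented by its annotated probe set of highest mean. Of the 35, 32 were measured among 18132 genes: 16 for complex I, 3 of 4 for complex II, 4 of 5 for complex III, 7 for complex IV, cytochrome c and PPARGC1A. NDUFA4, SDHB and UQCRFS1 are not analysed here.

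The cells were MDA-MB231, an established human breast cancer line, grown in DMEM with serum and plated the day before at 70% confluency. All groups received fresh medium for 24 h. Control cells (n = 4) received 0.1% DMSO, the vehicle of both agents. BB94 cells (n = 2) received 10 µM of batimastat, an inhibitor of metalloproteinases, and PD325901 cells (n = 3) received 3 µM of an inhibitor of MEK, the kinase that activates ERK. The labels call the samples biological replicates of this 1 line and give no batch, so each p-value measures the spread between these cultures only. RNA was read on PrimeView arrays and deposited as log2 values after robust multi-array averaging (RMA).

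Electrons from NADH enter the chain at complex I and electrons from succinate at complex II. Ubiquinone carries them to complex III, cytochrome c carries them to complex IV, and complex IV passes them to oxygen. Complexes I, III and IV pump protons, and the gradient drives ATP synthase. Most subunits are encoded in the nucleus, and a smaller set is encoded by mitochondrial DNA. PGC-1α binds no DNA by itself. It acts through DNA-bound factors such as NRF1, GABPA and the oestrogen-related receptors ERRα and ERRγ, and it is best known from muscle, heart and brown fat as an inducer of mitochondrial biogenesis.

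The treatments and the cell line were checked on other genes. Each of 6 transcriptional read-outs of MEK-ERK signalling fell with PD325901 (limma over all genes, adjusted p under 0.05), with log2 differences of -4.01 for DUSP6, -4.35 for ETV5 and -3.29 for CCND1. SPRY4, which was below background on 2 of the 3 PD325901 arrays, was at least 25.4-fold lower, with the dim group raised to the background level of each array. The fall was smaller in PD325901 replicate 1 than in replicates 2 and 3: DUSP6 lay at 11.04 against 8.99 and 8.02. Background was set as the highest of 23 background control probe sets of an array, at 6.02 to 6.50. Mesenchymal markers of the line were high in all groups (VIM means 13.94 to 14.03, AXL 13.71 to 13.77). Of 6 markers of the line, LOX rose by 1.19 with PD325901, MSN fell by 0.31 and 4 were not called. ESR1, PGR and CDH1 were below background on every array, as were the leukocyte markers PTPRC, CD3E and CD14 and the endothelial marker CDH5. LYZ, PECAM1, KDR, KRT8, EPCAM, GATA3 and FOXA1 were above background in controls, KDR on 3 of 4 arrays. Of these, GATA3 and KRT8 rose with PD325901, whereas LYZ, PECAM1 and KDR fell. The part of other cell states in the values given next was not tested. In bulk RNA, fewer cells with a transcript and less transcript per cell cannot be told apart.

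PPARGC1A rose strongly under MEK inhibition and was not called under metalloproteinase inhibition. The 4 control arrays read 8.76, 8.46, 8.53 and 8.42 in the order of their numbers. Those of BB94 read 8.54 and 8.37, and those of PD325901 11.20, 11.26 and 11.33. All 3 PD325901 arrays lay above all the others, while the BB94 arrays overlapped the controls. The control mean was 8.54 ± 0.15 (SD, n = 4) and the PD325901 mean 11.26 ± 0.07 (SD, n = 3), which gives a log2 difference of 2.72 ± 0.10 (SE) or 6.59-fold (limma, adjusted p = 2.3e-08). Against BB94 the difference was 2.81 ± 0.12 (adjusted p = 9.7e-08). BB94 differed from control by -0.09 ± 0.11 (SE), with an adjusted p of 0.895. The call of PD325901 against control was kept in each of 21 alternative analyses, with differences of 1.48 to 2.79. The lowest came from averaging all 4 probe sets of the gene, since the other 3 lay below background on all 9 arrays. Those 3 were also higher with PD325901, by 0.78 to 1.26 (limma over probe sets, adjusted p at most 0.0022), but below background such differences have no usable size.

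**Figure D1:**
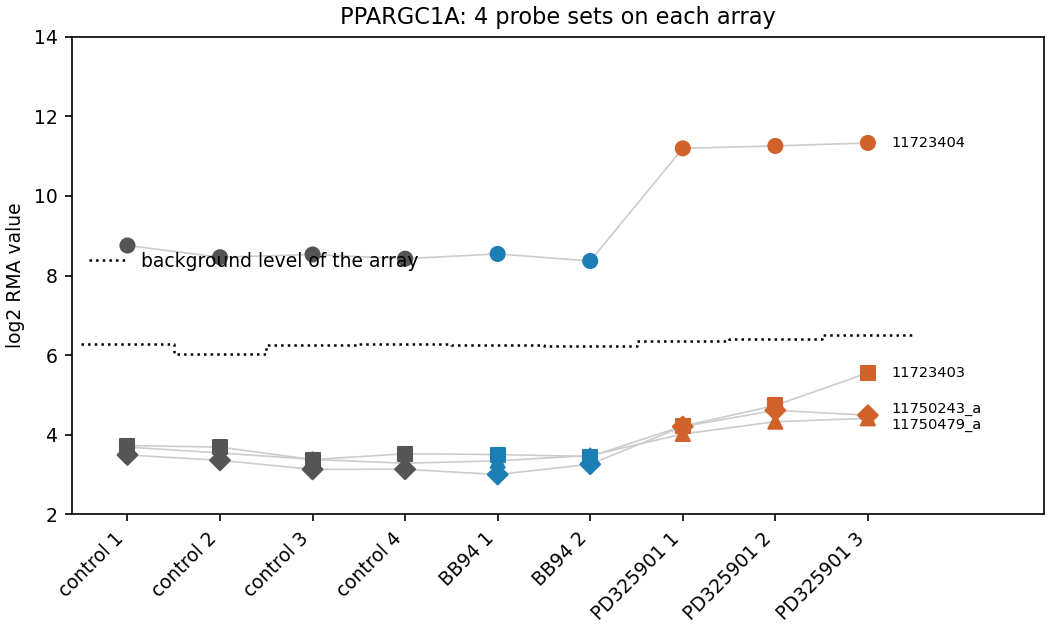
Log2 RMA value of each of the 4 PPARGC1A probe sets (vertical axis) on each of the 9 arrays (horizontal axis). Grey symbols are control, blue BB94 and orange PD325901, and the dotted line is the background level of each array. The probe set used sits at 8.37 to 8.76 on the control and BB94 arrays and at 11.20 to 11.33 with PD325901, while the other 3 stay below the dotted line.

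RefSeq lists 2 starts for PPARGC1A on chromosome 4, 592 kb apart. Both are shown because PPARGC1A was the one member with a large change. Each runs 5′ to 3′ from 250 bases before the start to 20 bases after it (RefSeq, GRCh38.p14).
PPARGC1A, upstream start (chr4:24472886-24473155, minus strand): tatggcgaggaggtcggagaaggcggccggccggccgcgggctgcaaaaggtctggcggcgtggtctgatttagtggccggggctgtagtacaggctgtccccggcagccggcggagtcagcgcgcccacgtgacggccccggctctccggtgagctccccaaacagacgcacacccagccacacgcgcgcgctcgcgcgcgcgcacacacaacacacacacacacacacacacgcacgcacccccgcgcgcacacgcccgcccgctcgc
PPARGC1A, downstream start (chr4:23881082-23881351, minus strand): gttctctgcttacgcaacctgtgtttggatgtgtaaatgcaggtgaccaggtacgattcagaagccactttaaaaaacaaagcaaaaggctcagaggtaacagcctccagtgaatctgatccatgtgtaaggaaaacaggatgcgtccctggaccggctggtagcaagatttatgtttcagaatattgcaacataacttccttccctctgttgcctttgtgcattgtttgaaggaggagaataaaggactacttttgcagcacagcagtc
The arrays do not tell which start was used. Neither window of 300 bases (250 before and 50 after a start) held any of 4 motifs searched on both strands: GCGCATGCG (NRF1 type), CCGGAAG (ETS or GABPA type), CAAGGTCA (ERR type) and AAGATGGCG (YY1 type).

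The subunits did not follow PPARGC1A as a group. Under PD325901, limma called 5 of the 31 subunits higher and 1 lower and left 25 without a call (Benjamini-Hochberg over all genes, adjusted p under 0.05). Over all genes, 22.8% were called higher and 12.3% lower, so 5 of 31 higher was not above the background. The median log2 difference was 0.08 over the subunits and 0.08 over all genes, and 22 of the 31 lay above 0. The risers were NDUFA8 and NDUFB5 of complex I, SDHD of complex II, UQCRC2 of complex III and COX5B of complex IV. Cytochrome c (CYCS) was the one that fell. All 3 PD325901 arrays lay above all 4 controls for 8 subunits and below them for 1, against 25.6% and 14.8% of all genes. Without PD325901 replicate 2 or without replicate 3, 4 members were called in place of 7, namely PPARGC1A, CYCS, NDUFA8 and COX5B. Every measured member was above background on all arrays, with values from 7.69 to 14.66.

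**Figure D2:**
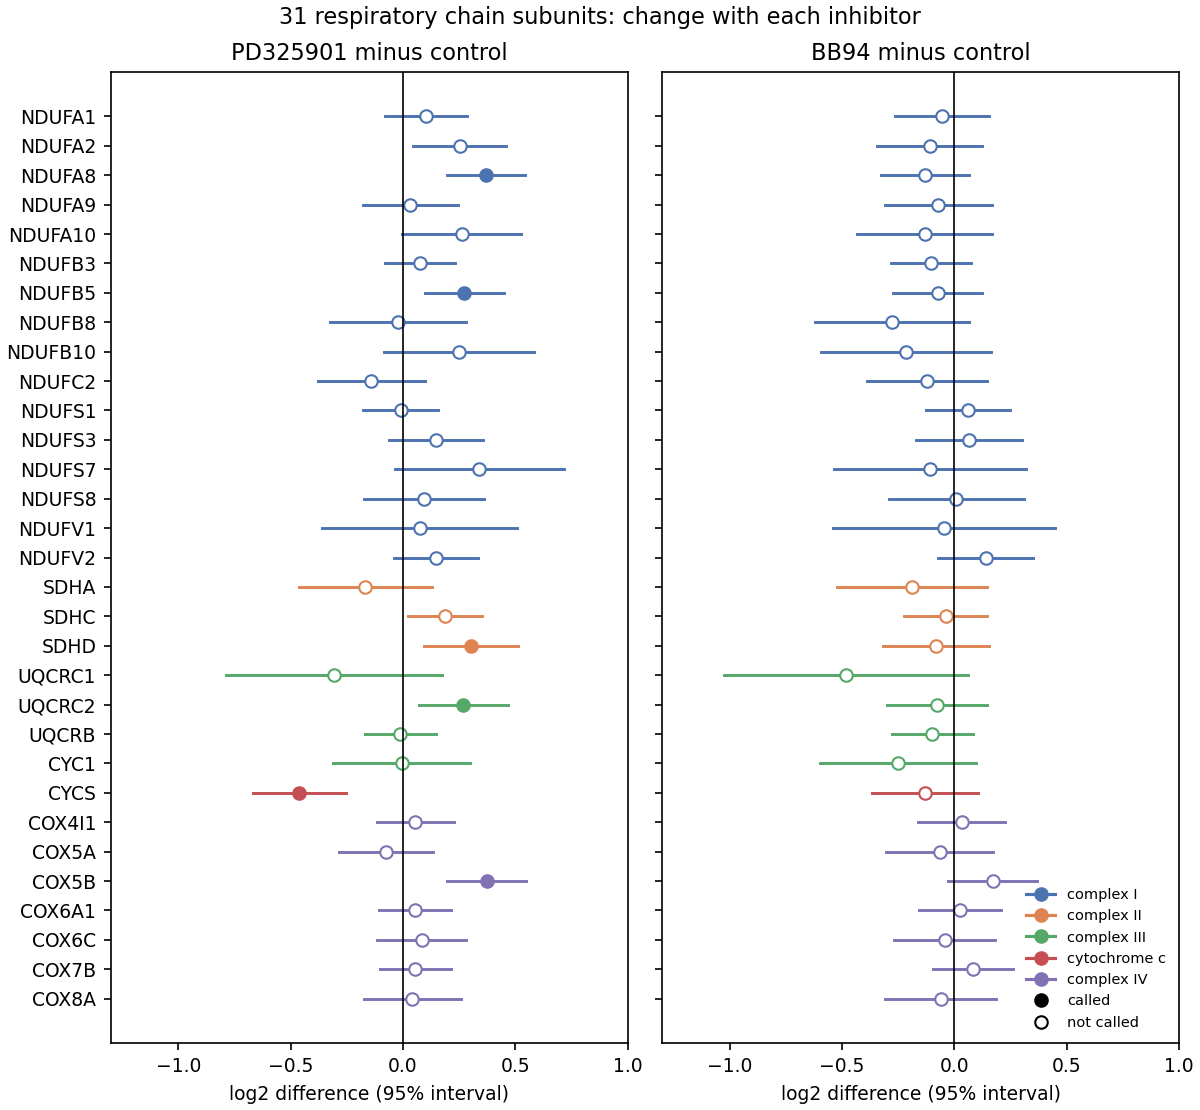
Log2 difference from control (horizontal axis) of the 31 subunits (rows) with PD325901 on the left and BB94 on the right. Points are limma estimates from 4 control, 2 BB94 and 3 PD325901 arrays, bars are 95% intervals, colours mark the complexes, and filled points passed the adjusted p of 0.05. Filled points stand only on the left: 5 to the right of 0 and CYCS at -0.46.

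CYCS encodes the soluble protein that ferries electrons from complex III to complex IV and that starts caspase activation when it leaves mitochondria. It read 12.54, 12.39, 12.21 and 12.29 in control, 12.23 and 12.22 with BB94, and 11.95, 11.80 and 11.94 with PD325901. The PD325901 arrays were the 3 lowest of the 9. CYCS fell by 0.46 on the log2 scale (SE 0.09, adjusted p = 0.0028), was also lower than with BB94 (-0.33 ± 0.11 SE, adjusted p = 0.047), and differed by -0.13 ± 0.11 between BB94 and control (adjusted p = 0.779). Against control it was called in all 21 alternatives, at -0.71 to -0.35. Against BB94 it lost its call in 8, among them leaving out either BB94 array (adjusted p = 0.172 without replicate 1 and 0.162 without replicate 2), any 1 of the PD325901 arrays or control replicate 2. A second CYCS probe set above background was lower too (-1.01, adjusted p = 2.1e-05 over probe sets), and the other, below background on all arrays, was not called. CYCS has many processed pseudogenes, and its probe set is of a type that can match more than 1 transcript, so the share of each copy in the signal is uncertain.

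Promoter sequences are shown next for CYCS and for the called subunits with an entry and a motif match, because their measured changes differ while the letters they carry can be compared. They run 5′ to 3′ from 250 bases before to 20 bases after the RefSeq start (GRCh38.p14). Capitals mark the letters of the 4 motifs on either strand, with overlapping NRF1-type matches on both strands merged.
CYCS (chr7:25125241-25125510, minus strand): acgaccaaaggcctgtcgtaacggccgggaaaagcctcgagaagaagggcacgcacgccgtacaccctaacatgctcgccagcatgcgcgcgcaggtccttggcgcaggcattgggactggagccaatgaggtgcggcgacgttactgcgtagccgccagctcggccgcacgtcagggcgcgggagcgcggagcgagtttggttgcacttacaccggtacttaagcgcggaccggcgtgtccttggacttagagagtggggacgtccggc
NDUFA8 (chr9:122159760-122160029, minus strand): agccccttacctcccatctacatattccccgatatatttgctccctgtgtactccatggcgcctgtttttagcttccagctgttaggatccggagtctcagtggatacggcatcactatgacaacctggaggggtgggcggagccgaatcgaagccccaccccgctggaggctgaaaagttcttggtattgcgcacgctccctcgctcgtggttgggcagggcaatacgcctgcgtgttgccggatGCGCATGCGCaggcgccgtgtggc
SDHD (chr11:112086623-112086892, plus strand): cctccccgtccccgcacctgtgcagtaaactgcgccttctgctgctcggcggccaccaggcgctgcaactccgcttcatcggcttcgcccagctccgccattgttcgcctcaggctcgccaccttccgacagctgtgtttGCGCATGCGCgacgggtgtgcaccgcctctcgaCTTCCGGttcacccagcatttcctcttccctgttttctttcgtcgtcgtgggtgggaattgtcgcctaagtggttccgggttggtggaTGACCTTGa
COX5B (chr2:97645812-97646081, plus strand): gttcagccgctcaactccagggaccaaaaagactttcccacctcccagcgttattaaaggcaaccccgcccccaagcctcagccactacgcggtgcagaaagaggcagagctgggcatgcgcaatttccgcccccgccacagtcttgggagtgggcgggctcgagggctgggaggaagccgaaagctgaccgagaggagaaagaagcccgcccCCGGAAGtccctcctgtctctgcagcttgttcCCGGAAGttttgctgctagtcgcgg
NDUFA8 carries the NRF1-type letters across its start, beginning 4 bases before it. SDHD carries the same letters 110 bases before its start, ETS-type letters 77 bases before it and ERR-type letters 12 bases after it. COX5B has 2 copies of the ETS-type letters, beginning 37 and 5 bases before the start. CYCS, the subunit that fell, and UQCRC2 had none of the 4, and NDUFB5 has no entry in the table. Only exact letters were counted, in these and all other windows. The printed CYCS and COX5B windows both hold gcatgcgc, which is the opposite-strand NRF1-type CGCATGCGC without its first letter.

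Of the 35 genes, 28 were in the promoter table. Over the 27 subunits among them, measured or not, the NRF1-type letters were in 4 windows (14.8%) and in 2.34% of the windows of 27305 genes: NDUFA8, SDHD, COX6A1 and NDUFS7. ETS-type letters were in 9 (33.3%, against 12.2%): COX5B, NDUFS1, NDUFS3, COX8A, SDHD, COX6A1, COX4I1, NDUFA1 and SDHB. YY1-type letters were in 5 (18.5%, against 2.14%), namely UQCRC1, NDUFB8, NDUFA9, NDUFS7 and SDHB, and in each they began 11 to 24 bases after the start. ERR-type letters were in SDHD and COX8A (7.41%, against 1.60%). Carriers of NRF1-type, ETS-type or ERR-type letters were called in some cases and not in others. No measured carrier of YY1-type letters was called. Of the 4 with NRF1-type letters, NDUFA8 and SDHD rose, while NDUFS7 (0.34) and COX6A1 (0.05) were not called. Of the 2 with ERR-type letters, SDHD rose and COX8A (0.04, adjusted p = 0.799) was not called. These matches describe letters and not bound sites.

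Complex I takes electrons from NADH and is the largest complex. Its 6 core subunits here, which carry or surround the flavin and iron-sulphur centres, were not called with PD325901. They were NDUFV1, which binds the flavin, at 0.07, NDUFV2 at 0.15, NDUFS1 at -0.01, NDUFS3 at 0.15, NDUFS7 at 0.34 and NDUFS8 at 0.09 (log2 differences; adjusted p 0.160 to 0.939). Their 95% intervals differed in width, from -0.18 to 0.16 for NDUFS1 to -0.36 to 0.51 for NDUFV1, and a p that misses the threshold does not show that a gene stayed the same.

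Of the 10 accessory subunits of complex I, 2 rose with PD325901 and 8 were not called, where 22.8% of all genes were higher and 12.3% lower. NDUFA8, a cysteine-rich subunit on the outer face of the inner membrane, read 11.99, 12.10, 12.00 and 12.18 in control, 11.96 and 11.92 with BB94, and 12.41, 12.48 and 12.42 with PD325901. The PD325901 arrays lay above all 6 others, at a log2 difference of 0.37 ± 0.08 (SE, adjusted p = 0.0035) or 1.29-fold. Its call was lost in 3 of 21 alternatives, and both centrings of the arrays, described further on, are among them. NDUFB5, of the proton-pumping membrane arm, read 12.13, 12.10, 11.99 and 12.23 in control, 12.01 and 12.07 with BB94, and 12.37, 12.40 and 12.39 with PD325901. It too was higher on all 3 PD325901 arrays than on the other 6 (0.27 ± 0.08 SE, adjusted p = 0.020). The call was close to the threshold: without control replicate 2 or 3, or any 1 of the PD325901 arrays, the adjusted p was 0.0504 to 0.0729. A second NDUFB5 probe set was also higher (0.28, adjusted p = 0.035 over probe sets).

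The accessory subunits that were not called ranged from -0.14 for NDUFC2 to 0.26 for NDUFA10. NDUFA2 (0.25, adjusted p = 0.059) had all 3 PD325901 arrays within 12.05 to 12.19 against 11.74 to 12.08 in control, so that the groups overlapped by control replicate 4. It was called in 7 alternatives, one of which left out that array (0.32, adjusted p = 0.012). NDUFB10 stood at 0.25, NDUFA1 at 0.10, NDUFB3 at 0.08, NDUFA9 at 0.03 and NDUFB8 at -0.02.

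Complex II is succinate dehydrogenase, an enzyme of the tricarboxylic acid cycle that also feeds the chain. SDHC and SDHD form its membrane anchor, where ubiquinone binds, and SDHA is the flavoprotein that oxidises succinate. SDHD read 11.52, 11.49, 11.22 and 11.30 in control, 11.32 and 11.29 with BB94, and 11.60, 11.74 and 11.72 with PD325901. The PD325901 arrays were the 3 highest, with control replicates 1 and 2 close beneath them. SDHD rose by 0.30 ± 0.09 (SE, adjusted p = 0.027), a call lost in 9 of 21 alternatives. Among these were leaving out control replicate 3 (adjusted p = 0.067) or 4 (0.059) and PD325901 replicate 2 (0.105) or 3 (0.090). None of the 4 other SDHD probe sets was called (0.19 to 0.23), and 2 of these held the same values on all 9 arrays. SDHC differed by 0.19 (adjusted p = 0.075), with all PD325901 arrays (12.32 to 12.40) above all controls (12.07 to 12.20), and a second SDHC probe set was higher (0.28, adjusted p = 0.034 over probe sets). SDHA differed by -0.17, opposite in sign to both anchor subunits, and was not called (adjusted p = 0.392).

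Complex III passes electrons from ubiquinol to cytochrome c. UQCRC2, a core protein without a redox centre, read 12.23, 12.42, 12.52 and 12.52 in control, 12.37 and 12.32 with BB94, and 12.65, 12.73 and 12.70 with PD325901. All PD325901 arrays were above the others (0.27 ± 0.09 SE, adjusted p = 0.037). This was the least stable of the 6 calls, lost in 12 of 21 alternatives. Leaving out any 1 of control replicates 1 and 2, the BB94 arrays or the PD325901 arrays ended it, at adjusted p of 0.0525 to 0.130. A second UQCRC2 probe set was also higher (0.33, adjusted p = 0.018 over probe sets). UQCRC1, the other core protein, differed by -0.31 (adjusted p = 0.328), and its controls alone spanned 8.22 to 9.24. UQCRB, which lies near the ubiquinone site, differed by -0.01 (adjusted p = 0.932), but 2 further probe sets of UQCRB were higher (0.36 and 0.48, adjusted p = 0.012 and 0.015 over probe sets). The probe sets of UQCRB thus disagree. CYC1, the haem protein cytochrome c1 that hands electrons to CYCS, differed by -0.01 (adjusted p = 0.981).

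Complex IV reduces oxygen to water, and its nuclear subunits surround a core made by mitochondrial DNA. COX5B, a zinc-binding subunit on the matrix side, read 11.87, 11.99, 12.07 and 12.06 in control, 12.13 and 12.21 with BB94, and 12.39, 12.37 and 12.35 with PD325901. The 3 PD325901 arrays were the highest and the 2 BB94 arrays came next. COX5B rose by 0.37 ± 0.08 with PD325901 (SE, adjusted p = 0.0034), or 1.29-fold, and lost its call only under the 2 centrings. With BB94 it differed by 0.17 ± 0.09 (SE, adjusted p = 0.551). The 6 other subunits of complex IV lay within -0.07 to 0.08: COX5A at -0.07, COX8A at 0.04, COX6A1 and COX7B at 0.05 and 0.06, COX4I1 at 0.06 and COX6C at 0.08. None of the 6 was called (adjusted p 0.542 to 0.799). The interval of COX6A1 was -0.11 to 0.22 and that of COX7B -0.10 to 0.21.

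Beyond the probe sets used, 24 subunits had 47 others. Of these, 5 were higher with PD325901 (1 each of NDUFB5, SDHC and UQCRC2, and 2 of UQCRB), 1 of CYCS was lower and 41 were not called. The shares called over all probe sets are not given here, so these counts are not set against a background. The 47 include 2 SDHD probe sets that held the same values on each array. No called subunit had another probe set called the opposite way. Several of the genes, among them SDHA, SDHD and UQCRB, have near-identical pseudogene copies, and how copies share the signal is uncertain.

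No change of a member was detected with BB94. limma called 0 of 32 against control, 0 had an unadjusted p under 0.05, and the lowest adjusted p was 0.543, against 1.58% of all genes called. The median of the subunits was -0.07 with BB94 and -0.02 over all genes. Of the 31 subunits 23 lay below 0, against 10349 of all 18132 genes. The lowest was UQCRC1 at -0.48 (95% interval -1.02 to 0.06), with BB94 arrays at 8.31 and 8.03, and the highest was COX5B at 0.17. With 2 arrays, the intervals reached 0.06 to 0.45 above 0 and as far as -1.02 below it, so modest changes would not have been detected.

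Set against each other, PD325901 and BB94 differed in 7 of the 32 members. NDUFA2, NDUFA8, NDUFB5, SDHD, UQCRC2 and PPARGC1A were higher with PD325901 and CYCS was lower. Of all genes, 21.0% were higher and 10.2% lower. Among the called subunits NDUFA8 differed by 0.50 ± 0.09 (SE, adjusted p = 0.0020), SDHD by 0.39 ± 0.11 (adjusted p = 0.023) and NDUFA2 by 0.36 ± 0.11 (adjusted p = 0.030). NDUFB10 (0.46), NDUFS7 (0.45) and NDUFA10 (0.39) had differences of like size and were not called (adjusted p 0.0609 to 0.127). Fitted on these 2 groups alone, each of the 3 was called (limma, adjusted p 0.0026 to 0.036). In that fit 12 members were called, and the share of all genes is not given here. All PD325901 arrays lay above both BB94 arrays for 21 of the 31 subunits and below them for 1. Over all 18132 genes these counts were 7386 and 3637. The difference of COX5B was 0.20 ± 0.09 and was not called (adjusted p = 0.140). Without BB94 replicate 1, BB94 replicate 2 or PD325901 replicate 2, NDUFA2, NDUFB5, SDHD, UQCRC2 and CYCS lost their calls and 2 members stayed called, namely PPARGC1A and NDUFA8. Without PD325901 replicate 3, 3 members were called.

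The direction of many subunits depended on how the arrays were scaled. As deposited, the median over genes was higher on the PD325901 arrays (7.77 to 7.86) than on the control arrays (7.50 to 7.61). When each array was centred on its median over genes, the median difference of all genes with PD325901 moved from 0.08 to -0.17, and that of the subunits from 0.08 to -0.18. The number of subunits above 0 fell from 22 to 7. None of the 31 was then called higher and 7 were lower: CYCS (-0.71), UQCRC1 (-0.56), SDHA (-0.42), NDUFC2 (-0.39), COX5A (-0.33), NDUFS1 (-0.26) and UQCRB (-0.26). In that scaling 13.0% of all genes were higher and 28.0% lower. When arrays were centred on the median over all probe sets, CYCS was the one subunit called, at -0.56, 13 subunits lay above 0 and the subunit median was -0.03, while 18.2% of genes were higher and 16.3% lower. PPARGC1A was higher by 2.47 and by 2.62 in these 2 scalings. NDUFA8, NDUFB5, SDHD, UQCRC2 and COX5B kept a positive sign in both, at 0.02 to 0.27, and lost their calls. Each centring shifts all genes of an array by the same amount, so it could not alter where the subunits lay relative to other genes. Relative to all genes, the subunits lay close to the median, with PPARGC1A above and CYCS below.

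**Figure D3:**
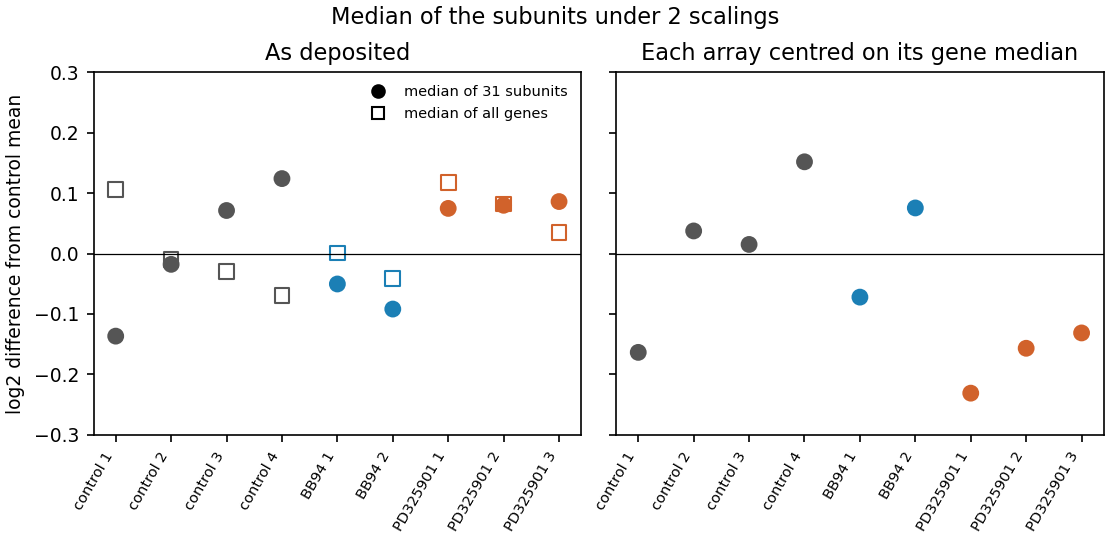
Median over the 31 subunits (filled circles) and, on the left only, over all genes (open squares), on each of the 9 arrays (horizontal axis). The vertical axis is the log2 difference from the control mean. Control is grey, BB94 blue and PD325901 orange. On the left, values as deposited place the PD325901 subunit medians at 0.07 to 0.09. On the right, where each array was centred on its gene median, they lie at -0.23 to -0.13.

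Spread was widest among the controls, for the subunits as for all genes. The median SD over the 31 subunits was 0.14 in control, 0.04 with BB94 and 0.05 with PD325901, and over all genes it was 0.16, 0.08 and 0.09. Control replicates 3 and 4 were compared with 1 and 2 because earlier results of these data had set them apart, and the labels give no reason for it. Of all genes, 7448 were lower in both of replicates 3 and 4 than in both of 1 and 2. In 19 of the 31 subunits both were above replicates 1 and 2, against 21.0% of all genes, and in 3 both were below. The subunit medians relative to the control mean were -0.14, -0.02, 0.07 and 0.12 in control replicates 1 to 4, while those of all genes were 0.11, -0.01, -0.03 and -0.07. Over subunits, replicates 3 and 4 exceeded 1 and 2 by a median of 0.16, and over all genes the median was -0.11. The gap was widest for UQCRC1 (8.22 and 8.31 against 9.24 and 8.83) and NDUFV1 (10.69 and 10.95 against 11.62 and 11.48). It was 0.34 in the median of complex III, 0.19 in complex I and 0.14 in complex IV. CYCS and SDHD ran the other way, by -0.22 and -0.25. The signal of the 3' ACTB control probe set exceeded that of the 5' one by 3.89, 3.75, 3.46 and 2.96 in control replicates 1 to 4, by 3.91 and 4.22 with BB94, and by 4.15, 3.61 and 3.50 with PD325901. The same difference for GAPDH was 0.79, 0.82, 0.67 and 0.58 in control, 0.93 and 0.95 with BB94, and 0.89, 0.73 and 0.79 with PD325901. Both measures, which follow RNA integrity and labelling, were lower in control replicates 3 and 4 than in the other controls and both BB94 arrays. Their part in the subunit values was not tested.

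**Figure D4:**
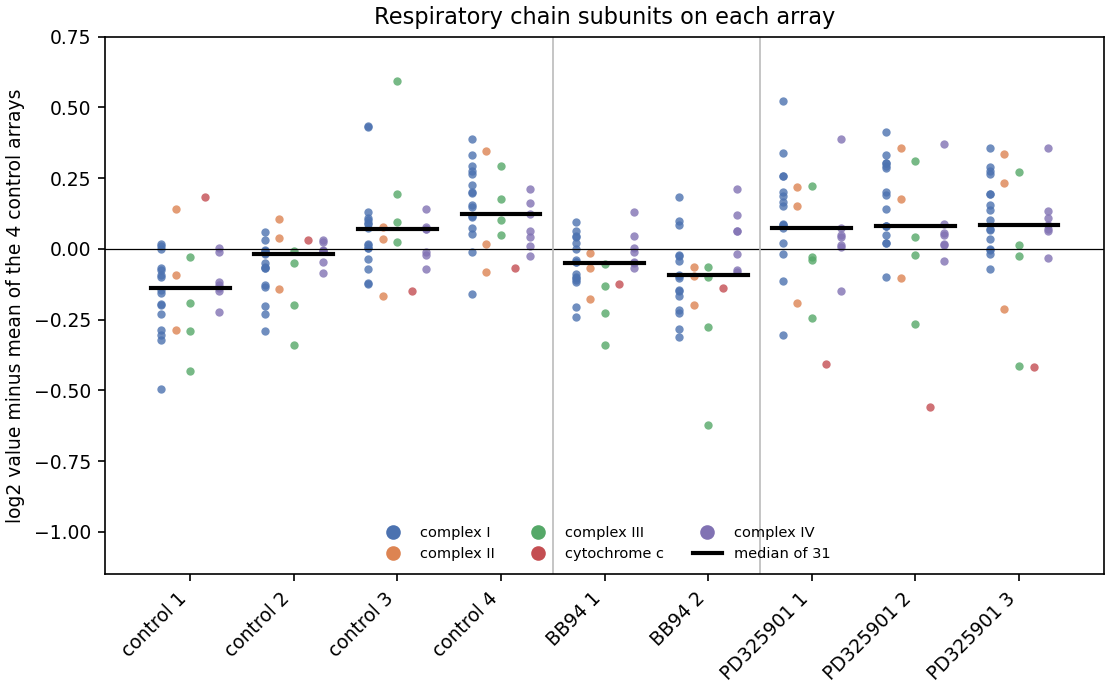
Log2 value minus the mean of the 4 control arrays (vertical axis) for each of the 31 subunits (points, coloured by complex) on each of the 9 arrays (horizontal axis), with a bar at the median. The medians of the controls run from -0.14 to 0.12, a wider range than the 0.07 to 0.09 of the PD325901 arrays.

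The choice of controls changed which subunits were called. With control replicates 3 and 4 left out, 12 subunits were higher with PD325901 and CYCS was lower, against 22.4% and 14.6% of all genes. With replicates 1 and 2 left out, 4 were higher and 5 were lower (SDHA, UQCRC1, CYC1, NDUFV1 and CYCS), against 32.1% and 13.9%. CYC1 was called higher in the first case (0.24, adjusted p = 0.038) and lower in the second (-0.25). NDUFV1, at 0.07 with all controls, was called lower in the second (-0.29, adjusted p = 0.034). BB94 against control replicates 3 and 4 alone called 5 subunits lower, where 4.27% of all genes were lower: UQCRC1 (-0.87), NDUFB8 (-0.50), CYC1 (-0.50), NDUFB10 (-0.48) and NDUFV1 (-0.41). PPARGC1A and CYCS kept their calls with PD325901 in both cases.

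How subunits varied together from array to array was described after subtracting the group means. The Pearson correlation over the 9 arrays between a subunit and the mean of the others of its complex had a median of 0.81 in complex I, 0.84 in complex III and 0.84 in complex IV. It ranged from -0.52 (NDUFV2) to 0.98 (NDUFS8) in complex I, and COX7B of complex IV stood at -0.06. In complex II the median was -0.50 over 3 subunits, with SDHD at -0.67. These values describe 9 arrays that share cell line, laboratory and scaling, and the controls supply most of the spread. The same was not computed for other genes.

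Other genes of the chain and of mitochondria came from 13 lists. Over all genes, 22.8% were called higher with PD325901 and 12.3% lower. Of 20 further complex I subunits, NDUFV3 rose with PD325901 (0.23, adjusted p = 0.031) but turned to -0.02 with centring over genes and to -0.01 with the mean of its probe sets, and 19 were not called. Its call was also lost without control replicate 2 (adjusted p = 0.0876) or any 1 of the PD325901 arrays (0.0542 to 0.138). No call was made among 4 further complex III subunits. Of 8 further complex IV subunits 1 was called, COX8C, which was below background on every array. ATP5MC1, which encodes part of the proton-carrying ring, fell by 0.23 (adjusted p = 0.042) as 1 of 18 ATP synthase genes, and 17 were not called. Its call was lost in 12 of 21 alternatives, with adjusted p of 0.0587 to 0.178 when any 1 array other than control replicate 1 was left out. The list of alternative or tissue-specific subunits held no further call over 5 measured. The 13 subunits encoded by mitochondrial DNA are not analysed here.

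Assembly factors were called in both directions with PD325901, where 22.8% of all genes were higher and 12.3% lower. Of 16 complex I assembly genes, 2 rose and 5 fell. Of the 5, NDUFAF1, NDUFAF2 and NDUFAF5 lost their calls in 4, 5 and 6 of 21 alternatives. COA1 averaged 10.57 ± 0.14 (SD, n = 4) in control and 9.68 ± 0.06 (SD, n = 3) with PD325901, at a difference of -0.89 (adjusted p = 2.4e-05). NDUFAF4 fell by 0.42 (adjusted p = 0.0050), whereas NUBPL, which delivers iron-sulphur clusters to complex I, rose by 0.61 (adjusted p = 1.5e-04). Among 24 complex IV assembly genes 3 rose and 2 fell: SURF1, whose loss causes Leigh syndrome, rose by 0.72 (adjusted p = 1.9e-04), COA5 rose by 0.45 (adjusted p = 0.0020) and CMC2 fell by 0.54 (adjusted p = 4.6e-04). SDHAF4, which helps to assemble SDHA, rose by 1.01 (adjusted p = 0.0035) as 1 of 10 complex II and III assembly genes. Centred on gene medians, 1 gene was higher and 9 lower in the complex I list, 1 and 5 in the complex II and III list, and 1 and 9 in the complex IV list, against 13.0% and 28.0% of all genes. In the complex II and III list BB94 lowered UQCC3 (-0.54, adjusted p = 0.015) and LYRM7 (-0.63, adjusted p = 0.017), 2 assembly factors of complex III. UQCC3 read 9.83 and 9.81 with BB94 against 10.28 to 10.42 in control, and LYRM7 10.01 and 9.88 against 10.45 to 10.78. Neither overlapped the controls, and 1993 of all 18132 genes likewise had both BB94 arrays below all controls. Each of the 2 lost its call in 5 of 21 alternatives. Leaving out BB94 replicate 1 or 2 was among them, at adjusted p of 0.112 and 0.199 for UQCC3 and 0.087 and 0.269 for LYRM7. These were the 2 genes called with BB94 over the 13 lists, where 1.58% of all genes were called.

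Among 20 measured regulators of mitochondrial genes there were 3 called higher with PD325901, 9 lower and 8 neither, against 22.8% and 12.3% of all genes. Their median was -0.17. NRIP1, a corepressor that opposes PGC-1α, fell by 1.15 (adjusted p = 3.9e-04), and PPRC1, a relative of PGC-1α, fell by 0.67 (adjusted p = 4.8e-04). ESRRG, encoding ERRγ, was higher by 1.63 but was below background on every array, so this has no usable size. Further regulators, the partners of PGC-1α among them, are named next; this choice was made with their values known. NRF1 read 8.95 to 9.13 in control and 8.42 to 8.49 with PD325901, a fall of 0.58 (adjusted p = 3.2e-04). TFAM, which packages mitochondrial DNA and takes part in its transcription, fell by 0.52 (adjusted p = 0.0073). ESRRA, encoding ERRα, read 10.24 to 10.40 in control and 10.81 to 10.87 with PD325901, a rise of 0.54 (adjusted p = 2.2e-04). GABPA (0.24, adjusted p = 0.469) and YY1 (-0.09, adjusted p = 0.561) were not called, and PPARGC1B, below background on all arrays, was not either. NRIP1, PPRC1, NRF1, TFAM and ESRRA kept their calls and signs in all 21 alternatives. Centred on gene medians, the list had 3 higher and 14 lower, against 13.0% and 28.0% of all genes.

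Among genes of fuel supply upstream of the chain, PDK4 rose by 1.42 (adjusted p = 9.3e-06) and PDK2 by 1.11 (adjusted p = 8.9e-05) with PD325901. Both encode kinases that switch off pyruvate dehydrogenase. They were 2 of 3 called among 19 genes of the tricarboxylic acid cycle and pyruvate dehydrogenase, and IDH2 rose by 0.47 (adjusted p = 0.0014); none fell, where 22.8% of all genes rose and 12.3% fell. Centred on gene medians, 2 of the 19 were higher and 6 lower, against 13.0% and 28.0% of all genes. IDH2 was not called in that scaling (0.21, adjusted p = 0.116). PDK4 read 9.77 and 9.38 with BB94, between control (8.73 to 9.13) and PD325901 (10.29 to 10.49), and was not called there (0.58, adjusted p = 0.096). ETFDH, which passes electrons from fatty acid oxidation to ubiquinone, rose by 0.57 (adjusted p = 0.0029) as 1 of 7 other donors. Among 18 genes of mitochondrial import and membrane, none rose and 3 fell, against the same 22.8% and 12.3%: TOMM40, the import pore of the outer membrane (-0.97, adjusted p = 0.0033), PHB1 (-0.40, adjusted p = 0.020) and TIMM23 (-0.32, adjusted p = 0.0037). PHB1 lost its call in 4 alternatives, which include leaving out control replicate 3 (adjusted p = 0.0509) or PD325901 replicate 3 (0.0829), and TOMM40 and TIMM23 in none. Centred on gene medians, 15 of the 18 were lower and none higher, against 28.0% and 13.0% of all genes.

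**Figure D5:**
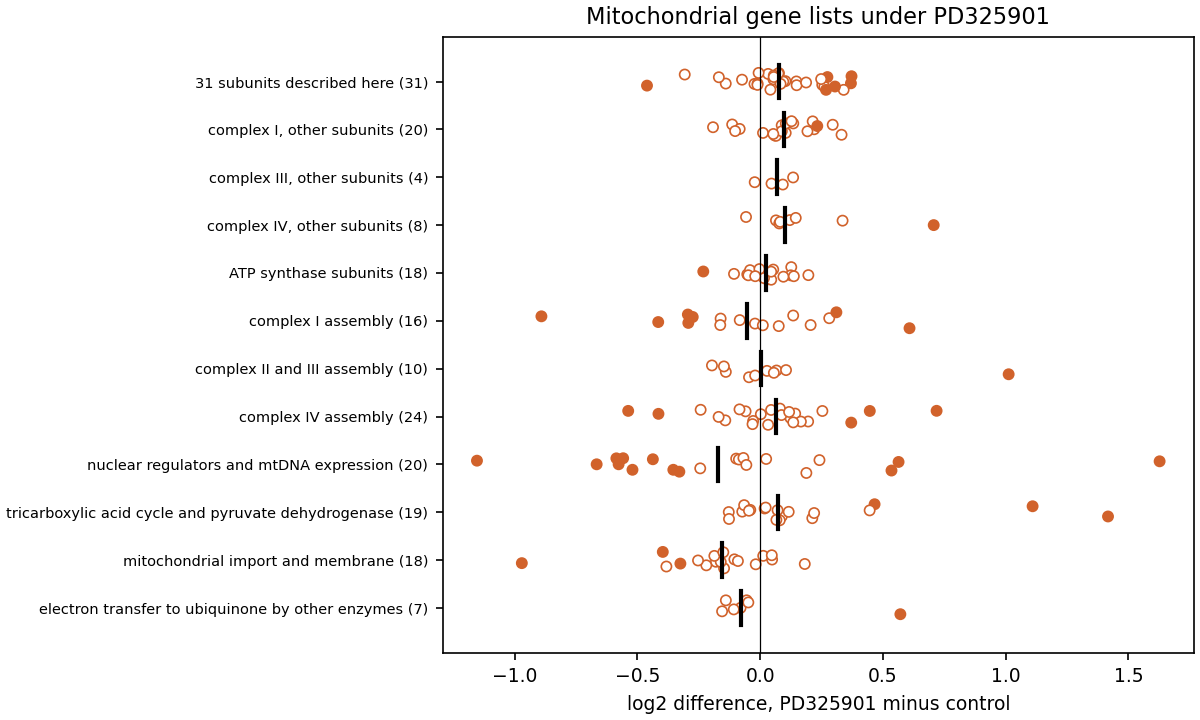
Log2 difference between PD325901 and control (horizontal axis) for each measured gene (points) of the 31 subunits and of the lists of other mitochondrial genes (rows, number measured in brackets). Filled points passed the adjusted p of 0.05 and bars are medians; the bar of the subunits is at 0.08 and that of the nuclear regulators at -0.17. The 2 filled points of COX8C (0.71) and ESRRG (1.63) come from genes below background on every array.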

How the data were processed

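The authors deposited 1 table of log2 values, made with the RMA routine of the R package affy from 9 PrimeView arrays, per the series' design text; versions are not given in the sources used here. No read depth applies, and the number of arrays limits precision. Probe sets were named from GEO's platform annotation: of 49395, 102 were controls, 44988 had 1 gene symbol, 1832 several and 2473 none listed. Only those with 1 symbol were used, and the probe set of highest mean stood for each of 18132 genes. limma 3.58.1 in R 4.3.3 (lmFit and eBayes, 1 mean per group, all 9 arrays sharing 1 spread, 6 residual degrees of freedom) gave two-sided tests with Benjamini-Hochberg adjustment over all genes, called under 0.05. The code was tested on simulated data. A correlation was taken after subtracting group means, since treatments separate the arrays.

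The members and lists were chosen with earlier results of these data known, so no set test was made. Arrays were read for PPARGC1A, CYCS, members called with BB94 and, per complex, called members with the largest changes (up to 3 each way in I and IV, 2 in II and III); each list names up to 3 called genes by size. Alternatives were the mean of all probe sets, no collapse, a mean log2 filter of 5, trend and robust or array-weight settings, 2 centrings, cyclic loess, a replicate block, each array or control pair left out, and fits on 2 groups. Promoters come from RefSeq (GRCh38.p14). No other value columns were left aside.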

Additional observations from a re-analysis of the deposited data

Results flagged for a closer look

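The SDHC value of 12.07 in control replicate 1 stood apart from the other 3 controls, at 12.18 to 12.20. Its gap to the nearest of them was 0.844 of the range of the group, above the 95% critical value of Dixon's test for 4 samples. Chance alone marks about 1 in 20 such groups, and all 32 members were examined in this way.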

How the results depend on the processing

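PPARGC1A was called higher and CYCS lower with PD325901 in all 21 alternatives, and the 5 subunits called higher kept their sign in all of them but lost calls in 2 to 12. The 7 members called in PD325901 against control became 13 with array weights, 2 with centring over probe sets, 14 without control replicates 3 and 4, and 4 to 9 when 1 array was left out. Of all genes, 22.8% were higher and 12.3% lower with all 9 arrays as deposited. These shares were 18.2% and 16.3% with centring over probe sets, and 22.4% and 14.6% without control replicates 3 and 4. For array weights and single arrays left out, the shares are not given here. The median of the members, 0.08, became -0.17 with centring over genes, -0.022 over probe sets, 0.19 without control replicates 3 and 4, and 0.0084 without 1 and 2. For BB94 the median of -0.07 became -0.0017, 0.039, 0.023 and -0.14 in the same order. Without control replicates 1 and 2, 5 members were called lower with BB94, against 4.27% of all genes. The 7 called in PD325901 against BB94 became 11 with trend and robust settings, with array weights or without control replicates 3 and 4, 12 without control replicates 1 and 2 or with only the 2 groups, 4 with centring over genes, 2 over probe sets, and 2 to 9 when 1 array was left out. With all 9 arrays as deposited, 21.0% of all genes were higher and 10.2% lower with PD325901 than with BB94. The shares in the other settings are not given here. Reversed signs among called values were CYC1 at 0.24 without control replicates 3 and 4, NDUFV1 at -0.29 without control replicates 1 and 2, NDUFV3 at -0.012 with the mean of all probe sets and -0.020 with centring over genes, and POLRMT, a regulator, at 0.084 with the mean of all probe sets. With the replicate number as a block, 9 members were called in PD325901 against control (median 0.12), 0 in BB94 against control and 6 in PD325901 against BB94. Same-numbered arrays had deviations correlated at -0.19 to 0.12, and differently numbered ones at -0.27 to 0.27. The deviations of the 2 BB94 arrays mirror each other, so their correlations differ only in sign. The numbers are thus not shown to pair cultures. The causes of these shifts were not tested beyond the arrays left out. The small number of arrays limits all of the above, most of all the 2 of BB94.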
